A study of Mus musculus with 2 samples.

Results

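Most Ly6, Pate and Lypd genes encode small cysteine-rich proteins of the Ly6/uPAR superfamily. All Ensembl genes of the 2 deposited gene tables whose symbol reads Ly6 followed by a letter, Pate followed by a number or Lypd followed by a number were taken, which gave 30 of 43346 genes. Of these, 17 were Ly6 genes, 4 were Pate genes and 9 were Lypd genes, and all 30 are protein-coding by annotation. The rule used names and no measured value, though the family was proposed with earlier results of these data known.

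The study sequenced polyadenylated RNA longer than 200 nt from the gonadal fat pad, the white fat depot beside the gonads, of C57BL/6J mice that were 8 weeks old. It held 1 group of 2 libraries, labelled biological replicates 1 and 2, made from separate biosamples, read as strand-specific pairs of 76 nt and carrying spike-in RNAs. No genotype or treatment was compared, and both libraries carry 1 donor identifier, so it is not known how many mice stand behind each. The labels describe mixed-sex littermates pooled, and the health state is given as unknown.

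Expected counts, which are estimated numbers of fragments, summed over Ensembl genes to 47106979 in replicate 1 and 54129473 in replicate 2. Levels below are TPM (a transcript level scaled by length and to a fixed total per library), first in replicate 1 and then in replicate 2. Fat cell genes were abundant. Fabp4, a fatty acid carrier, was at 2869 and 2744 TPM, while the hormone gene Adipoq, at 767.3 and 1299 TPM, and the lipid droplet gene Cidec, at 1049 and 2068 TPM, were higher in replicate 2. All 14 genes of a list of epididymal epithelium were abundant too, at a median of 2727 and 2209 TPM; the epididymis is the duct in which sperm mature, and it borders this fat pad in males. Sex-linked genes went against the label of a mixed-sex pool, since Xist had 18 and 4 fragments while the Y-linked genes Ddx3y, Eif2s3y, Kdm5d and Uty lay between 4.61 and 16.9 TPM in both libraries. In bulk RNA, fewer cells of a type and less RNA per cell cannot be told apart.

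Most of these proteins fold into a three-finger domain, a core held by disulphide bonds from which 3 loops extend. Most Ly6 and Lypd proteins are tethered to the outer leaflet of the cell membrane by a glycosylphosphatidylinositol (GPI) anchor, while the Pate proteins are mostly secreted into the male reproductive tract, where they bind sperm. Several members act at nicotinic acetylcholine receptors, and others serve as surface antigens that mark progenitor, endothelial or myeloid cells. Ly6a encodes Sca-1, the antigen by which stromal progenitors of fat are often sorted.

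The members are related in sequence to very different degrees. Over 435 pairs of coding sequences the median identity was 46.3%, and 9 pairs reached 80% or more. The closest pair was Ly6c1 and Ly6c2, both of 396 coding nt, which were identical at 387 bases (97.7%), differed at 9 and shared a run of 188 nt. Coding bases 1 to 120 of the GENCODE transcripts Ly6c1-201 and Ly6c2-201 are shown because the split of reads between these genes rests on such differences. Capitals mark the 6 bases that differ within this stretch.
Ly6c1: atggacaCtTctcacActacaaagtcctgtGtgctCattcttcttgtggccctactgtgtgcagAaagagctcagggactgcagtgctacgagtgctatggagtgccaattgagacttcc
Ly6c2: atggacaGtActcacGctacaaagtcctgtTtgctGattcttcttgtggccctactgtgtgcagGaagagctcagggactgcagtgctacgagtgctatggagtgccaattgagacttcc
In the leading transcript of Ly6c1, 22.9% of the windows of 76 nt, the length of a read, also occurred in transcripts of other genes, mostly Ly6c2. For Ly6c2 the share was 21.7%, for Ly6a 2.16% and for Ly6i 0.463%. No window of this length was shared for the other 26 members.

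The sequence before the start differed more than the coding sequence did between Ly6c1 and Ly6c2. RefSeq promoter entries (build GRCm38.p6) matched 19 of the 30 members by symbol, and the 250 bases before 1 start per gene were searched on both strands. The motif TATAAA, the letters of the TATA box, was present in 6 of the 19 members and in 13.0% of 27025 promoters of that length. The motif CCAAT was present in 11 of the 19 and in 34.5% of all. The following stretches of 80 bases are shown because these 4 neighbouring genes are close copies with very different RNA levels, given further on. That of Ly6c2 was placed by its alignment with Ly6c1, and capitals mark TATAAA and CCAAT.
Ly6c1, chr15:75048911-75048990, minus strand: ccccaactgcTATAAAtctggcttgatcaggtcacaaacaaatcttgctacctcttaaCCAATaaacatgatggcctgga
Ly6c2, chr15:75112078-75112157, minus strand: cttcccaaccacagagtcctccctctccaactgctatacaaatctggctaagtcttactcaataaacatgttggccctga
Ly6f, chr15:75268242-75268321, plus strand: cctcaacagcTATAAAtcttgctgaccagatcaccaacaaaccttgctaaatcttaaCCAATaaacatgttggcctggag
Ly6g, chr15:75155152-75155231, plus strand: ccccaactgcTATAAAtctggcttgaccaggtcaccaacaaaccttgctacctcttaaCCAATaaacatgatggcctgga
Ly6c1, Ly6f and Ly6g held both motifs, and Ly6c2 held neither in its 250 bases. The best local alignment of the Ly6c1 and Ly6c2 promoters had 72.2% identity over 227 positions, below the 87.7% over 155 positions of Ly6c1 and Ly6f. Ly6f and Ly6g had 88.3% over 180 positions. These matches are descriptions of letters and show no binding site. Among the genes with both motifs, Ly6c1 was at 220.4 and 280.8 TPM and Ly6f at 59.2 and 159.7 TPM. Ly6g had 1 fragment in each library, and Ly6c2, with neither motif, was at 4.78 and 3.55 TPM. The part of the motifs in these levels was not tested.

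Promoters of Lypd8 and Ly6g5c are shown because these genes had the highest mean levels of the 30. Capitals mark CCAAT and AGAACA, the letters of 1 arm of the androgen and glucocorticoid response element, on either strand.
Lypd8, chr11:58378782-58379031, plus strand: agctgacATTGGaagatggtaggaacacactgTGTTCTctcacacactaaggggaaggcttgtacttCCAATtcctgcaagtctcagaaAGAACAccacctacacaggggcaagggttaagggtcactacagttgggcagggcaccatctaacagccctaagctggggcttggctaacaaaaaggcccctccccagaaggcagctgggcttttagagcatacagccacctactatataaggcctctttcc
Ly6g5c, chr17:35108044-35108293, plus strand: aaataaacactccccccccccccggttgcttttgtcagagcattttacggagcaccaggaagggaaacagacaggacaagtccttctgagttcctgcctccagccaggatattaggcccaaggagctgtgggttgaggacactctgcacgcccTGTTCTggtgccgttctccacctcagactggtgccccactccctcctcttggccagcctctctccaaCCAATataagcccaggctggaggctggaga
AGAACA began 218 and 161 bases before the start in Lypd8 and 97 bases before it in Ly6g5c. It was present in 5 of the 19 members and in 16.1% of all promoters. The GC box GGGCGG was present in 5 of the 19 and in 33.1% of all.

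Most of the 30 genes were expressed in the pad, and 4 of them dominated. Expressed means a level of at least 1 TPM in each library, which held for 20 of 30 members (66.7%), against 33.0% of all Ensembl genes and 61.6% of protein-coding genes. The share is close to that of protein-coding genes, so expression as such does not set these genes apart. By branch, 13 of 17 Ly6, 3 of 4 Pate and 4 of 9 Lypd genes were expressed. Pate4 and Lypd1 reached 1 TPM in 1 library each, and 8 members were below it in both.

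Together the members held 0.909% and 0.698% of the TPM of all Ensembl genes, and 0.478% and 0.400% of the expected counts. The 4 highest, Lypd8, Ly6g5c, Ly6g5b and Ly6e, held 93.4% and 87.8% of that TPM. All 4 were at 1000 TPM or more in both libraries, a level that 113 genes reached in all. The plot of levels by library shows levels that run from 0 to over 2000 TPM.

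**Figure D1:**
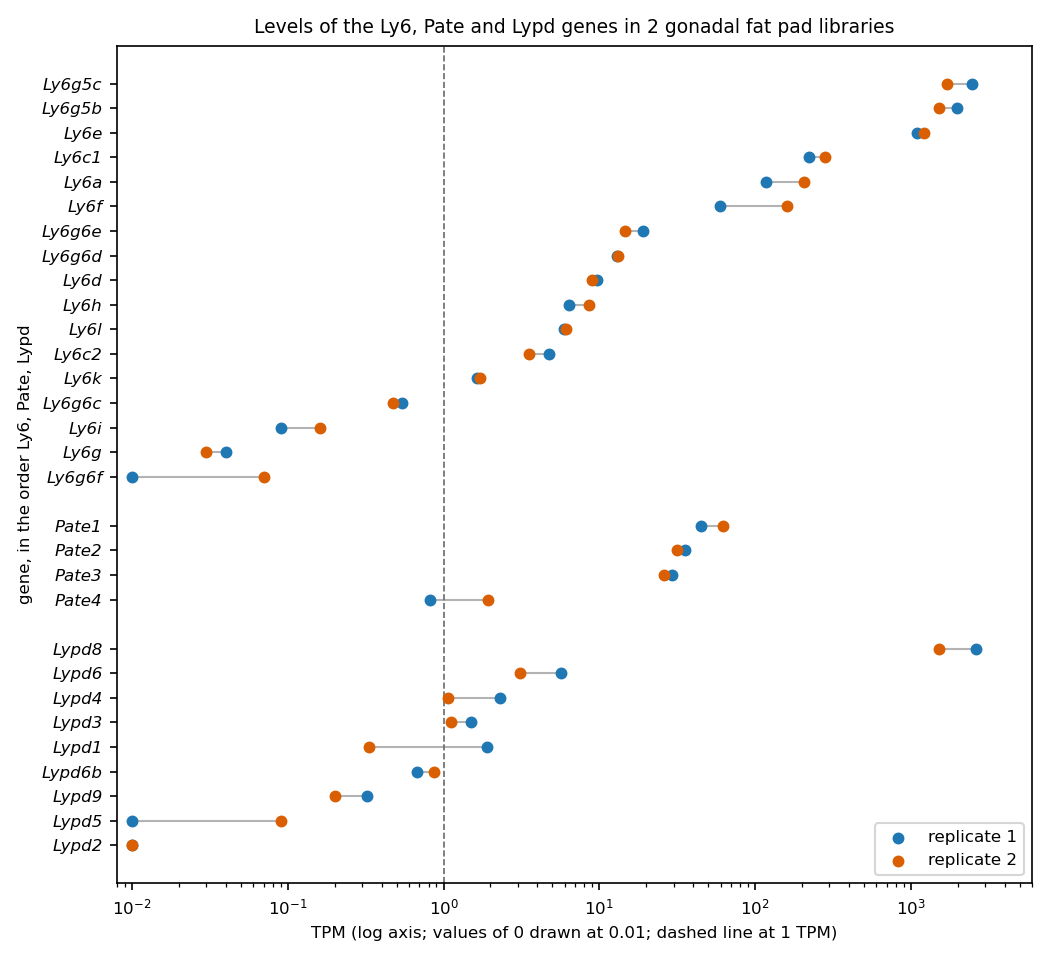
TPM of each of the 30 genes on a log axis, with 1 point for replicate 1 and 1 for replicate 2, grouped as Ly6, Pate and Lypd genes and sorted by mean level; values of 0 are drawn at 0.01. Lypd8, Ly6g5c, Ly6g5b and Ly6e lie above 1000 TPM in both libraries, and 20 genes lie to the right of the dashed line at 1 TPM in both.

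Lypd8 was the most abundant Lypd gene and the highest of all 30 in replicate 1. It encodes a GPI-anchored protein known from the colon, where it binds bacterial flagella and keeps bacteria from the epithelium. Its level was 2635 and 1521 TPM, from 89108 and 64831 fragments, with a mean of 2078 ± 788 TPM (SD, n = 2). The gene lies on chromosome 11 from 58379043 to 58390728 on the plus strand (mm10, GENCODE M21). Lypd9, its neighbour within a span of 73.88 kb, had 4 and 3 fragments. High expression of Lypd8 thus did not extend to the Lypd gene beside it.

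Ly6g5c and Ly6g5b, which lie side by side in the major histocompatibility complex region of chromosome 17, were the most abundant Ly6 genes. Ly6g5c was at 2489 and 1706 TPM from 27147 and 22620 fragments, a mean of 2097 ± 554 TPM (SD, n = 2). Ly6g5b reached 1975 and 1526 TPM from 62079 and 59499 fragments, a mean of 1750.5 ± 317 TPM (SD, n = 2). By TPM Ly6g5c was above Ly6g5b in both libraries, while Lypd8 was the first of these 3 in replicate 1 and the last in replicate 2. The order also depends on length: by fragments Ly6g5c was below both of the others in each library, since its effective length was 293 and 286 nt against 843 and 839 nt for Ly6g5b.

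The other Ly6 genes of that region were far lower. Within 50.04 kb (35065388 to 35115428) lie 6 members, of which 4 were expressed. Ly6g6e was at 19.2 and 14.7 TPM, from 398 and 394 fragments. Ly6g6d was at 12.9 and 13.2 TPM, from 197 and 232 fragments. These genes overlap by 1164 nt on opposite strands, and the sources used here do not state whether the counting used strand. Ly6g6c was at 0.54 and 0.47 TPM, the highest Ly6 gene below the threshold, and Ly6g6f had 0 and 3 fragments. The lipase gene Abhd16a, which also lies in the span, was at 173 and 179 TPM, so the high levels of Ly6g5c and Ly6g5b stood among neighbours of very different levels.

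The chromosome 15 cluster holds the surface antigens for which the family is named. Its 12 members lie over 835.0 kb from 74732247 to 75567255, and 9 of them were expressed. Ly6e, an interferon-inducible gene whose product limits entry of several viruses, was at 1096 and 1219 TPM from 32085 and 44541 fragments, a mean of 1157 ± 87.1 TPM (SD, n = 2). Ly6c1, which encodes an antigen of endothelial cells, was at 220.4 and 280.8 TPM, from 4583 and 7263 fragments. Ly6a was at 117.3 and 207.1 TPM, from 2999 and 6684 fragments. All 3 were higher in replicate 2, as were 34.8% of all genes with at least 20 fragments on average.

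Ly6f, a close relative of Ly6a with 84.4% identical coding positions, was at 59.2 and 159.7 TPM, from 1371 and 4547 fragments. Ly6c2, which encodes the Ly6C antigen of monocytes, was at 4.78 and 3.55 TPM, from 119 and 141 fragments. Ly6c1 thus stood 46.1 and 79.1 times above its near copy, and 77.1% of the windows of the Ly6c1 transcript are its own. Ly6g, the neutrophil antigen, had 1 fragment in each library, and Ly6i had 3 and 4. Genes that share over 80% of their coding bases therefore ran from over 200 TPM to near 0.

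The outer members of the cluster were low. Ly6d, known from early B cells and stratified epithelium, was at 9.66 and 8.98 TPM, from 190 and 217 fragments. Ly6h, a brain-enriched modulator of nicotinic receptors, was at 6.39 and 8.62 TPM, from 179 and 284 fragments. Ly6l was at 5.90 and 6.15 TPM, from 47 and 59 fragments. Ly6k, which is needed in the testis for fertile sperm, was at 1.63 and 1.71 TPM, from 35 and 45 fragments. Lypd2, at the edge of the cluster, was the only member with 0 fragments in both libraries, which allows up to 0.354 and 0.293 TPM at 3 fragments. Such floors and the counting intervals given further on cover counting error only. Of the 41 genes in the span, 11 were expressed, so the members made up most of its expressed genes.

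**Figure D2:**
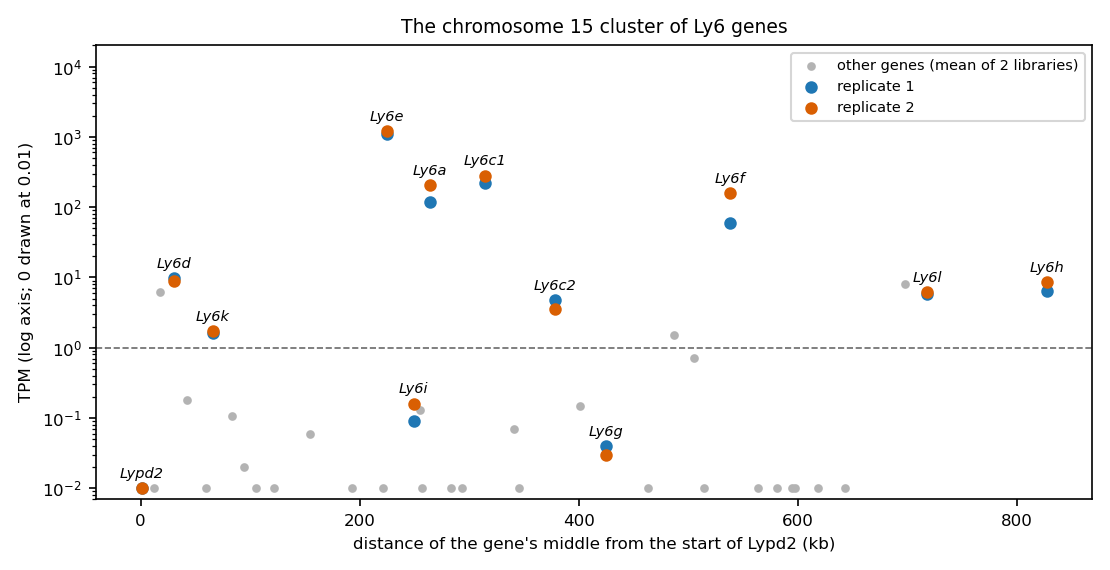
TPM on a log axis against distance in kb from the start of Lypd2, for members in replicate 1 and replicate 2 and, in grey, for the other genes of the chromosome 15 cluster as the mean of both libraries; 0 is drawn at 0.01. Ly6e, Ly6a, Ly6c1 and Ly6f stand above 50 TPM, while Ly6i and Ly6g, which lie between them, stand below 1 TPM.

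The Pate genes lie together on chromosome 9 and 3 of the 4 were expressed at like levels. Pate1 was at 45.2 and 62.1 TPM, from 490 and 808 fragments. Pate2 was at 35.6 and 31.4 TPM, from 2444 and 2603 fragments. Pate3 was at 29.4 and 26.0 TPM, from 1214 and 1330 fragments. These genes are known for secretion into the fluids around sperm, and the summed level of the 4 was 111.0 and 121.4 TPM. Pate2 spans 120.0 kb (35570284 to 35690318) on the plus strand and contains Pate1, Pate3 and Pate4 on the minus strand, and whether the quantification used strand is not stated, so reads in the shared stretches cannot be assigned with certainty.

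Pate4 stood apart from the other Pate genes. It is also listed by RefSeq as Svs7, a name of the seminal vesicle secretory proteins, and is known for a product in seminal fluid. Its level was 0.82 and 1.92 TPM, from 26 and 75 fragments, and by its share of all fragments it was 2.51 times higher in replicate 2 (95% counting interval 1.59 to 4.09). A list of 9 seminal vesicle genes moved the same way, from a summed 0.78 TPM to 53.23 TPM. Svs5 was at 0 and 25.1 TPM and Svs4 at 0 and 12.0 TPM, and of the 9 all but Spinkl were listed at 0 in replicate 1. All 6 of the list with a mean of at least 20 fragments were more than 2-fold higher in replicate 2. Of all genes with such a mean, 1.15% were. The part of seminal vesicle RNA in the level of Pate4 was not tested.

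Beyond Lypd8 the Lypd genes were low. Lypd6, a membrane protein that enhances Wnt signalling, was at 5.67 and 3.08 TPM, from 238 and 182 fragments. Lypd4, a sperm gene, was at 2.30 and 1.06 TPM, from 90 and 51 fragments. Lypd3, which encodes C4.4A of stratified epithelium, was at 1.50 and 1.12 TPM, from 79 and 73 fragments. All 3 were lower in replicate 2, as were 64.8% of all genes with at least 20 fragments on average. Lypd6b, the relative of Lypd6 on chromosome 2, was the highest below the threshold in both libraries at 0.67 and 0.87 TPM, and Lypd5 had 0 and 3 fragments. The 9 Lypd genes summed to 2648 and 1527 TPM, nearly all of it Lypd8.

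The libraries were compared gene by gene with the log2 ratio of (TPM + 1), replicate 2 over replicate 1, a scale that understates differences of low genes. With 1 library on each side this is a description and no test exists. Among the 23 members with at least 20 fragments on average, 2 differed by more than 2-fold (8.70%), against 2.70% of 16920 genes. Only Ly6f was higher in replicate 2, where 1.15% of all genes were, and only Lypd1 was higher in replicate 1, where 1.54% were. With a pseudocount of 0.1, Pate4 and Lypd4 also passed, which made 4 of 23 against 6.35% of all genes. With so few genes the members' share has little weight, and their median ratio of -0.10 was close to the -0.11 of all genes. In the plot of ratios gene by gene, 11 members lie above 0 and 12 below, and of all genes 34.8% lie above 0 and 64.8% below.

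**Figure D3:**
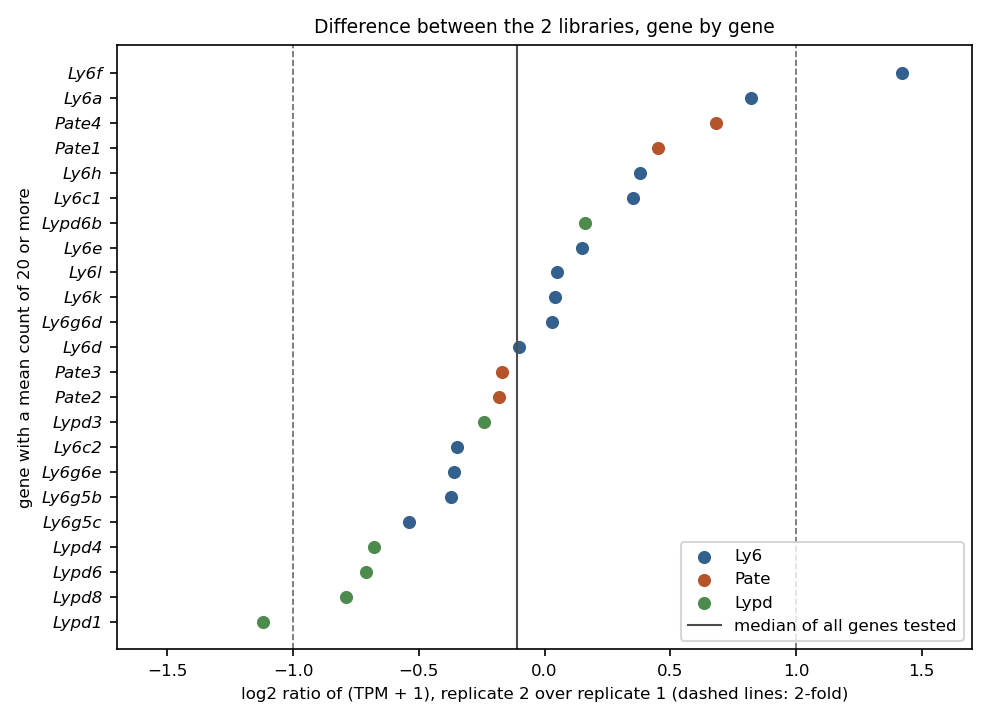
Log2 ratio of (TPM + 1), replicate 2 over replicate 1, for the 23 members with a mean count of 20 or more, coloured by branch; dashed lines mark 2-fold and the solid line the median of all 16920 genes, -0.11. Ly6f at 1.42 and Lypd1 at -1.12 lie outside the dashed lines, and 5 of the 6 Lypd genes lie below 0, as do 64.8% of all genes.

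The ratio of Ly6f was 1.42, and by its share of all fragments it was 2.89 times higher in replicate 2 (95% counting interval 2.72 to 3.07). Both annotated transcripts moved together, since Ly6f-202 held 67.5% and 68.8% of the gene's TPM and Ly6f-201 the rest. The ratio was 0.82 for Ly6a, 0.35 for Ly6c1 and 0.15 for Ly6e. Lists of 10 endothelial and 10 stromal progenitor genes, all expressed, had median ratios of 0.13 and 0.31, with summed levels of 650.8 and 739.3 TPM and of 536.1 and 716.0 TPM. None of these 20 genes was over 2-fold apart, where 2.70% of all genes were, so few calls would be looked for among 20. Fat cell genes went both ways. Adipoq, Cidec and Lpl (1590.5 and 1863 TPM) were higher in replicate 2, while Fabp4 and Plin1 (653.7 and 578.2 TPM) were lower. The part of any of these cell types in the difference of Ly6f was not tested.

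Lypd1, a brain-enriched modulator of nicotinic receptors, was at 1.89 and 0.33 TPM, from 118 and 22 fragments. Its ratio was -1.12, and by its share of all fragments it was 6.16 times higher in replicate 1 (95% counting interval 3.89 to 10.2). The call ended with FPKM, where the ratio was -0.94, and with the authors' posterior mean TPM, where it was -0.73. Lypd1 overlaps Gpr39 by 6241 nt on the opposite strand, and Gpr39 was at 7.47 and 6.68 TPM.

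Lypd8, Ly6g5c and Ly6g5b were lower in replicate 2, as most epididymal genes and most genes of the table were. The ratio was -0.79 for Lypd8, -0.54 for Ly6g5c and -0.37 for Ly6g5b. The 14 epididymal genes had a median ratio of -0.56 against -0.11 for all genes, summed to 48257 and 34555 TPM, and were higher in replicate 2 for 2 of 14, where 34.8% of all genes were. Among them Gpx5, a secreted peroxidase, was at 9518 and 6082 TPM. A list of 8 spermatid genes also had lower values in replicate 2 for all 8, where 64.8% of all genes did, with Prm2, a protamine, at 222.7 and 171.8 TPM. No gene of either list was at 0 in both libraries, and their part in the levels of Lypd8, Ly6g5c and Ly6g5b was not tested.

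The split by direction depended on the unit and the scaling. With FPKM the median of all genes was -0.02, 47.3% of them were above 0, and the members split into 12 above and 11 below. Counts with TMM scaling, which change the unit as well, gave a median of 0.00 with 50.4% of all genes above 0, and 13 members above and 10 below. Among all genes over 2-fold apart, 42.8% were higher in replicate 2 by TPM, 58.5% by FPKM and 57.3% by counts with TMM scaling. The sign was the same under all units and scalings tried for 21 of the 23 members, and it flipped for Ly6c2 and Ly6d. Ly6f stood at 1.54 and Lypd1 at -1.29 after TMM scaling.

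Of the 20 expressed members, 5 have 1 annotated transcript, and the leading transcript by TPM was the same in both libraries for all 20. By the mean of the libraries a second transcript held 10% or more in 13, and in 11 of these it did so in each library. The exceptions were Ly6h, at 16.3% and 6.91%, and Ly6c2, whose second transcript held 22.5% in replicate 1 and 0 in replicate 2. Lypd8 showed a shift between coding transcripts, with Lypd8-201 at 75.9% and 61.5% of the gene's TPM and Lypd8-202 at 24.1% and 38.5%. By fragments the same shift was seen, with Lypd8-201 at 73.3% and 58.3%, so most of the difference of Lypd8 lay in 1 transcript: Lypd8-201 was at 1999.7 and 935.8 TPM, while Lypd8-202 was at 635.5 and 584.9 TPM. Transcripts of 1 gene share sequence, and their split is an estimate.

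**Figure D4:**
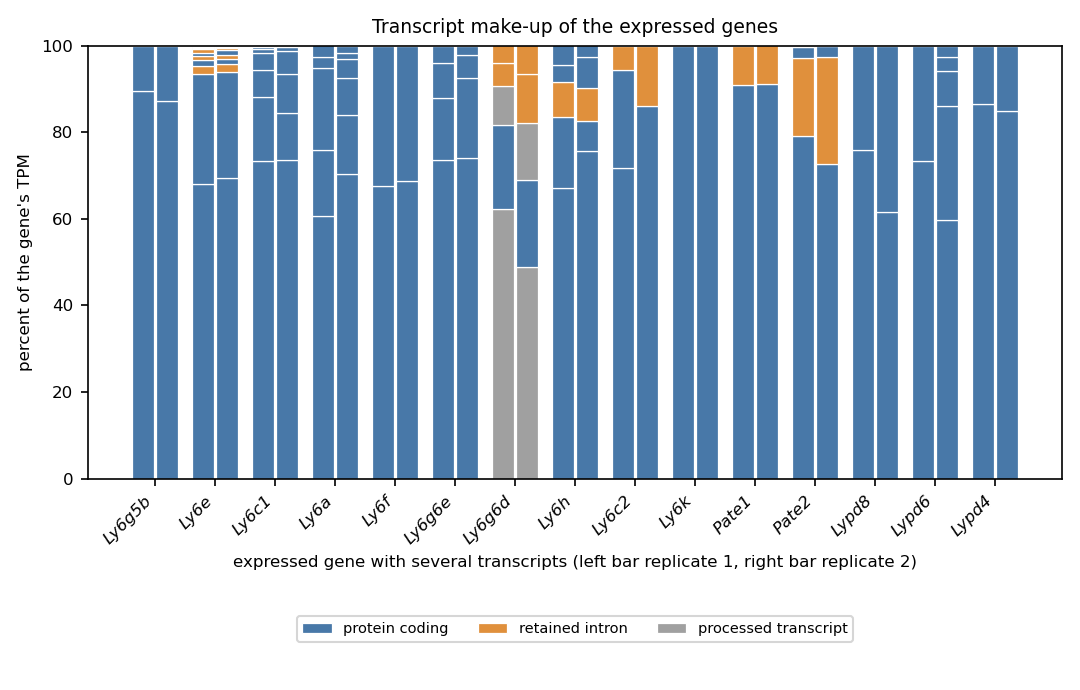
Percent of each gene's TPM held by each of its transcripts, as stacked bars from 0 to 100 with replicate 1 left and replicate 2 right, for the 15 expressed members with several annotated transcripts, coloured by transcript type. Coding transcripts fill most bars, Ly6g6d is mostly non-coding, and Lypd8 shows different proportions in the 2 libraries.

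Some members owed part of their level to transcripts that encode no protein. In Ly6g6d the coding transcript held 2.49 of the gene's 12.9 TPM and 2.65 of its 13.2 TPM. The processed transcript Ly6g6d-202 led with 62.3% and 48.9%. In Pate2 the retained-intron form Pate2-204 held 18.2% and 24.6%, and the coding level was 29.0 and 23.6 TPM. In Ly6c2 the coding share was 94.4% and 86.2%. Pate1-202, also a retained-intron form, held 9.20% and 8.91% of TPM but 46.1% and 46.2% of the fragments of Pate1, because it is 1675 nt long against 389 nt for Pate1-201.

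Length also set which transcript led in Lypd6. The short Lypd6-204 of 563 nt held 73.4% and 59.7% of its TPM, whereas Lypd6-202 of 3495 nt held 77.4% and 67.9% of its fragments. In Ly6e, the transcript Ly6e-215 led with 68.1% and 69.5%, and the shorter Ly6e-213 held 25.4% and 24.4%. The leading form of Ly6a, Ly6a-204, held 60.7% and 70.4%. The leading form of Ly6c1, Ly6c1-201, held 73.4% and 73.5%, and that of Ly6g5b, Ly6g5b-201, held 89.5% and 87.1%.

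Relatives with the same domain were expressed for 6 of 15 genes listed, against 61.6% of protein-coding genes. Gpihbp1, which carries lipoprotein lipase across the capillary wall, led at 171.3 and 264.7 TPM. Cd59a, an inhibitor of the complement attack complex, was at 26.0 and 58.6 TPM, and Cd59b at 6.17 and 9.22 TPM. Cd59a, with a ratio of 1.14, was the only one over 2-fold apart, where 2.70% of all genes were. Of the 8 tested, 7 were higher in replicate 2, as were 34.8% of all genes. The highest Ly6 genes therefore exceeded every listed relative.

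All 24 listed genes of GPI anchor synthesis, attachment and remodelling passed 1 TPM in each library, where 61.6% of protein-coding genes did. Their median was 18.5 and 12.4 TPM. Pgap2, which remodels the anchor's lipid, led at 640.0 and 589.3 TPM. The transamidase subunit Pigt was at 105.3 and 75.2 TPM, and Pigq, of the first step, at 100.2 and 109.7 TPM. Only Pign was over 2-fold apart, lower in replicate 2 with a ratio of -1.33 (25.1 and 9.39 TPM). Of all genes with at least 20 fragments on average, 2.70% were over 2-fold apart. The fragments of Pign were 1304 and 1269, so its difference by TPM was far larger than that by fragments.

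Nicotinic receptor subunits, the partners of several members, were mostly below 1 TPM, while 61.6% of protein-coding genes were expressed. Of 16 genes, 2 were expressed: Chrna2 at 16.7 and 12.2 TPM and Chrnb1 at 12.5 and 14.0 TPM. Chrnb2 was at 1.28 and 0.99 TPM, and the median of the list was 0.05 and 0.06 TPM.

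Markers of the cells in which Ly6 antigens are known were present to differing degrees. The counts of expressed genes below stand against 61.6% of protein-coding genes. Endothelial genes were led by Egfl7 at 262.4 and 340.7 TPM, and progenitor genes by Col15a1 at 177.6 and 275.0 TPM. Of 12 monocyte and neutrophil genes 5 were expressed, led by Csf1r at 40.9 and 34.0 TPM and including Csf3r at 1.80 and 3.59 TPM. The neutrophil granule genes Mpo, Ngp, Camp and Elane were at 0.75 TPM or less, beside 1 fragment of Ly6g in each library. S100a9 was at 1.09 and 0.89 TPM. Of the 6 genes of this list with a mean of at least 20 fragments, only S100a8 was over 2-fold apart, at 0.61 and 8.68 TPM. Of all genes with such a mean, 2.70% were. Of 9 genes of squamous and basal epithelium 3 were expressed, led by Krt14 at 32.9 and 32.5 TPM and Krt5 at 38.2 and 27.1 TPM. Of 6 T cell genes 1 was expressed, Lck at 2.47 and 2.43 TPM, and of 6 prostate genes none was, with Msmb and Sbp at 0 fragments in both. Which cells carried the members was not tested.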

How the data were processed

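Polyadenylated RNA was measured in 2 libraries of 1 group. Per the file headers, the authors' gene and transcript tables give for each row an expected count (an estimated number of fragments), TPM and FPKM, both scaled by effective length and library, the posterior mean of TPM and its interval, and, for transcripts, the percent of the gene's TPM. The deposited notes name mm10 and GENCODE M4, while for the aligner and the quantifier neither name nor version is given in the sources used here. Deposited tables of splice junctions and contigs on the older build mm9 were not used.

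Symbols came from Ensembl identifiers (42462 of 43346 matched), positions and transcript names from GENCODE M21 on mm10, and promoters and synonyms from RefSeq GRCm38.p6. A protein table was not used. The start nearest to the GENCODE start was taken for each promoter. Coding sequences were aligned end to end in Biopython 1.88. The members and the gene lists were chosen with earlier results of these data known, and the fat cell and sex-linked genes were chosen after their values were seen.

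Expressed genes were those with at least 1 TPM in each library. Genes over 2-fold apart had a mean of at least 20 expected fragments and a ratio of (TPM + 1) past 2. Expressed members are named with values in both, those under it by count with the highest of each branch, and lists by up to 3 leading genes. With 1 group no test exists and no p-value was computed; counting intervals are exact binomial at 95%. On rounded counts the libraries were not duplicates (chi-square per degree of freedom 136 over 19548 genes). That they are biological replicates rests on the labels. Whether the replicates came from separate animals is not stated, so their spread may be partly technical. A floor of 3 fragments came to 0.0805 and 0.0646 TPM at an effective length of 1000 nt. Alternatives were other thresholds, pseudocounts, count minimums and units, on expected counts rounded to whole numbers, the TMM scaling of edgeR 4.0.16 and the size factors of DESeq2 1.42.0, single libraries, and a narrower reading of the symbols.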

Additional observations from a re-analysis of the deposited data

How the results depend on the processing

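The number of expressed members, 20, stayed between 17 and 22 under thresholds of 2 and 0.5 TPM, posterior mean TPM, FPKM and counts scaled to library size, and was 21 in each library alone. A narrower reading of the symbols, with nothing after the letter or number, kept 14 of 21. The 2 members over 2-fold apart became 4 of 23 with a pseudocount of 0.1, which added Pate4 (1.13) and Lypd4 (-1.05) while the count over all genes rose from 456 to 1074 (6.35%). They became 1 with FPKM and 1 with posterior mean TPM, both without Lypd1. Other count minimums, TMM scaling and DESeq2 size factors left 2. The Ly6 genes held 0.576% of all TPM, from 0.529% to 0.623% in single libraries, 0.668% after mitochondrial genes and genes with an effective length under 100 nt were removed, and 0.275% of counts. The Pate genes held 0.0120%, from 0.0115% to 0.0125% in single libraries, 0.0139% after that removal and 0.00888% of counts. The Lypd genes held 0.215%, from 0.157% to 0.274% in single libraries. The changes by counts follow from dropping the length scaling. For single members, 40 of 44 alternative levels, 78 of 110 ratios and 50 of 60 transcript shares stayed within their spread or counting interval. The cause of the others was not tested. A share in a single library always lies within a spread taken from 2 libraries, so only shares by fragments could leave it. Of these 20 shares 10 did, and 5 belong to genes with 1 annotated transcript, which cannot move. Levels from coding transcripts alone cannot move either where all transcripts are coding. No paired analysis was possible because there is 1 group. Depth limits the members at 4 fragments or fewer, whose levels are at or near the floor of 3 fragments.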

Other observations

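The 4 Pate genes described lie beside further Pate genes on chromosome 9, some of them at higher levels. RefSeq gives names of these families to 16 further genes whose Ensembl symbols differ, and 13 of them matched 1 row each of the gene tables. Of these 13, 5 were expressed, against 33.0% of all Ensembl genes and 61.6% of protein-coding genes. All 5 were Pate genes lying from 35741049 to 35910796, next to the 4 described. Pate13 was at 386.7 and 294.1 TPM, Pate5 at 302.1 and 291.8 TPM and Pate6 at 220.2 and 119.7 TPM, each above Pate1, Pate2 and Pate3 in both libraries. Pate7 followed at 109.1 and 97.6 TPM and Pate10 at 20.3 and 11.5 TPM. The 5 Pate genes beyond 36431884 on the same chromosome, Pate8, Pate9, Pate11, Pate12 and Pate14, were all under 1 TPM in replicate 1. Pate14 had 1 and 28 fragments and Pate9 had 0 and 42, and both had more fragments in replicate 2, as Pate4 did.

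Within the chromosome 15 cluster, the transcribed pseudogene 9030619P08Rik, which lies between Ly6f and Ly6l, was at 2.18 and 13.7 TPM from 52 and 401 fragments. It was higher in replicate 2, the direction of Ly6f, and was chosen after its values were seen. I830127L07Rik, which RefSeq names Ly6a2, had 0 and 7 fragments.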
